A study of Mus musculus with 36 samples.

Results

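Interferon-stimulated genes are the genes that a cell switches on when interferon binds to its surface receptors. A set of 33 such genes was followed in the RNA of mouse knee articular cartilage, out of 23059 genes with a symbol in the count tables. The members were named by gene, with earlier results of these data known, and found through the RefSeq accession of each transcript. For each gene the transcript row with the highest mean count over all 12 RNA libraries was used, which left 33 of the 40 rows that the members occupy among 30048 rows. By role they comprised 3 transcription factors (Stat2, Irf9 and Irf7), 3 nucleic acid sensors (Ifih1, Dhx58 and Zbp1), 3 IFIT genes (Ifit1, Ifit2 and Ifit3), 5 OAS genes (Oas1a, Oas2, Oas3, Oasl1 and Oasl2), 7 genes of the ISG15 and ubiquitin pathway (Isg15, Usp18, Herc6, Trim25, Dtx3l, Parp9 and Parp14), 3 guanylate binding proteins (Gbp2, Gbp3 and Gbp7) and 9 other effectors (Rsad2, Cmpk2, Bst2, Samd9l, Xaf1, Rtp4, Ifi35, Ifi44 and Lgals3bp). Every member had at least 34 counts in every RNA library, and all 33 passed the filter on low counts in every comparison.

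The RNA came from male C57BL/6J mice, operated on at 12 weeks of age by cutting the ligament that anchors the medial meniscus of the right knee (destabilization of the medial meniscus, DMM), which leads to osteoarthritis (OA). The left knee of the same mice was not operated and served as the control, so the effects of the operation itself and of joint instability cannot be told apart. Cartilage was microdissected from tibial plateaus and femoral condyles 4 or 12 weeks after surgery and pooled from 3 knees per library, giving 3 control and 3 DMM libraries at each time point. The labels do not say whether same-numbered pools of both limbs came from the same mice, and the p-values below measure the spread between pools.

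Type I interferons signal through a receptor that activates the JAK kinases JAK1 and TYK2, which phosphorylate STAT proteins such as STAT2. Together with IRF9 these form a complex that enters the nucleus and binds the interferon-stimulated response element (ISRE) in the promoters of its target genes, and IRF7 amplifies the response by driving further interferon production. The products of the target genes sense foreign RNA and DNA, block viral translation and replication, or tag proteins with the ubiquitin-like modifier ISG15. Several of them are also present at a low tonic level in tissues without infection.

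The ISRE core was read from the promoter sequences of RefSeq on GRCm38, from 250 bases before to 50 bases after each start site, as GAAANNGAAA on either strand. Of the 33 members, 26 had an entry in this promoter table, and 12 of these (46.2%) held the core, against 1079 of 27025 genes (3.99%). The gamma-activated site TTCNNNGAA was found in 5 of the 26 members (19.2%) and in 2582 of the 27025 genes (9.55%). The 6 windows below are shown because they hold the core and their genes recur in the comparisons that follow, and they are written 5′ to 3′ along the gene's own strand. Capitals mark every base covered by a match, and a match in which TTTC stands in place of GAAA is the core on the opposite strand.
Isg15, chr4:156200865-156200906: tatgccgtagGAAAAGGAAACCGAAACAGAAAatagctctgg
Stat2, chr10:128270266-128270295: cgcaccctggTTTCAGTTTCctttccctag
Oas3, chr5:120777715-120777744: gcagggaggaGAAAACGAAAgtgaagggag
Ifit1, chr19:34640775-34640823: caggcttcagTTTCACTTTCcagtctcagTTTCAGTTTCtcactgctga
Gbp2, chr3:142620594-142620623: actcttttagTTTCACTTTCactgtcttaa
Rsad2, chr12:26456553-26456582: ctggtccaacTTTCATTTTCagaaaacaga
In Isg15 there were 3 overlapping matches between 78 and 57 bases before the start site, and in Ifit1 there were 2 separate ones between 104 and 76 bases before it. Stat2, Oas3, Gbp2 and Rsad2 each had 1, and that of Stat2 lay farthest from its start site, at 222 to 213 bases. The core was also present in the windows of Gbp3, Gbp7, Ifit3, Oas1a and Bst2 before the start site and in that of Ifih1 after it. A match is a stretch of letters and was not tested for binding in these samples.

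Many members lie next to each other in the genome. Within 100 kb of each other lay Gbp7, Gbp3 and Gbp2 (chr3:142530336-142638008), Oasl2 and Oasl1 (chr5:114896934-114937911), Oas2 and Oas3 (chr5:120730333-120777659), Rsad2 and Cmpk2 (chr12:26442743-26479837), Parp14, Dtx3l and Parp9 (chr16:35832878-35972621) and Ifit2, Ifit3 and Ifit1 (chr19:34550694-34650009), all on GRCm38. Dtx3l and Parp9 overlap on opposite strands over 6.45% and 9.37% of their exonic bases, and the libraries are not stated to keep the strand, so reads from that stretch cannot be told apart. Of all 50-base words, 51.2% of those in Ifit3 also occur in Ifit3b and 57.6% of those in Oas1a in Oas1g or Oas1b, and Herc6 shares 23.8% with Gm45193 and Gbp7 12.8% with neighbouring family members and Gm43802. The values of these genes are therefore uncertain.

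The RNA libraries held 47843461 to 50066012 counts in the 4-week control, 33105311 to 42964188 in the 4-week DMM, 35284404 to 62737656 in the 12-week control and 27706547 to 47118148 in the 12-week DMM group. Levels are given as CPM, each library's count scaled to a common total, after TMM scaling over all 12 libraries. The 15 chondrocyte markers (such as Acan and Col2a1) were present in every library, summing to 11567 to 41136 CPM. Markers of other tissues were present as well, with 9645 to 45435 CPM for 14 neutrophil genes, 7377 to 21663 CPM for 10 erythroid genes and 105 to 24440 CPM for 15 skeletal muscle genes, and no gene of these lists was at 0 in all libraries. In bulk tissue, fewer cells of a type and less RNA per cell cannot be told apart.

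Per kilobase of exon, the mean levels of the members over the 12 libraries spanned from 0.691 CPM per kilobase for Ifi44 to 33.2 for Lgals3bp, a secreted glycoprotein. Rsad2, which encodes viperin, an antiviral enzyme of the endoplasmic reticulum, was second at 26.1 with single libraries from 13.5 to 51.7. Ifi35 followed at 23.3, Bst2 (tetherin, which holds budding virus at the cell surface) at 22.1 and Isg15 at 18.6 CPM per kilobase. The ranges of single libraries of these 5 genes overlapped. The transcription factors Irf9 and Irf7 stood above Stat2, at 15.8, 13.5 and 5.15 CPM per kilobase. Irf9 and Irf7 have 3 transcript rows each and Stat2 has 1, and these levels rest on 1 row per gene. The OAS genes were low, from 0.692 for Oas2 to 4.91 for Oasl2.

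At 4 weeks the members differed widely between libraries of 1 limb, and the limbs overlapped. For each library the median over the 33 members of the log2 CPM minus the gene's mean over 12 libraries was taken. This median was -0.58, -0.13 and 0.39 in 4-week control replicates 1, 2 and 3 and -0.23, 0.31 and 0.62 in 4-week DMM replicates 1, 2 and 3. At 12 weeks it was 0.04, 0.02 and 0.26 in the control and -0.19, -0.29 and -0.21 in the DMM libraries, and the limbs did not overlap. Over all genes the same median stayed between -0.04 and 0.04 in every library. Control replicate 1 at 4 weeks was the lowest of its group for 30 of 33 members and control replicate 3 the highest for 30 of 33, whereas over all genes these libraries were the lowest for 36.4% and the highest for 37.7%. Among the 4-week DMM libraries replicate 1 was the lowest for 25 of 33 members (41.8% of all genes) and replicate 3 the highest for 22 of 33 (39.1% of all genes). The median SD of log2 CPM over members was 0.45 in the 4-week control group, 0.37 in 4-week DMM, 0.25 in 12-week control and 0.16 in 12-week DMM, against 0.31, 0.29, 0.22 and 0.23 over all genes.

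**Figure D1:**
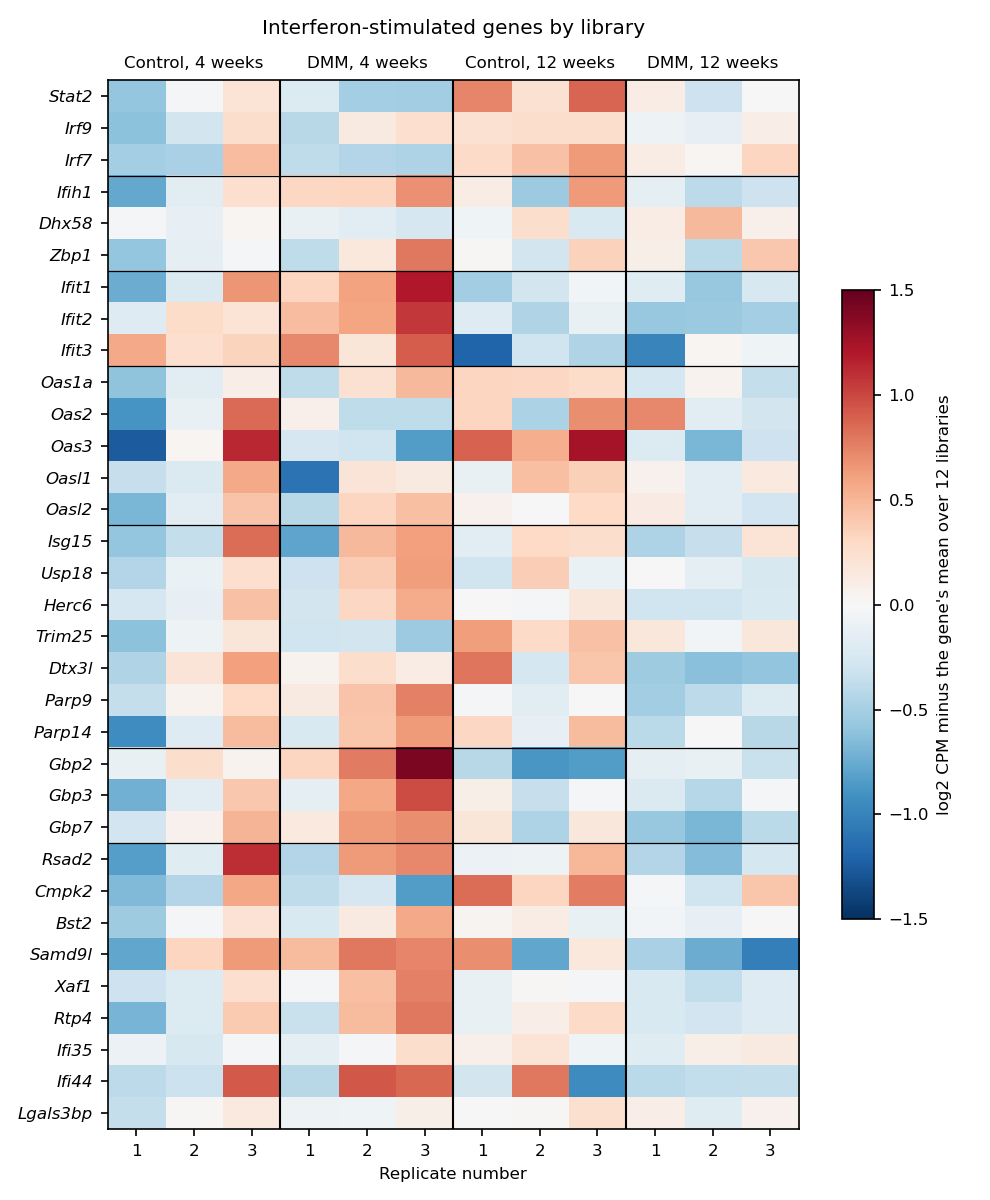
Each row is 1 of the 33 members in its role group and each column 1 RNA library, and the colour is log2 CPM minus the gene's mean over the 12 libraries. At 4 weeks the columns of control replicate 1 (median -0.58) and control replicate 3 (median 0.39) stand apart within 1 limb, and at 12 weeks the DMM columns have medians from -0.29 to -0.19.

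Markers of monocytes and macrophages had the same order of replicates within each limb at 4 weeks. The sum of 13 of these genes was 706, 1099 and 1200.3 CPM in 4-week control replicates 1, 2 and 3 and 1003, 1417 and 1886 CPM in the DMM replicates. At 12 weeks it was 1185, 977 and 1166 CPM in the control and 866, 744 and 989 CPM in the DMM libraries. The sum of 8 endothelium genes had the same order of replicates in both limbs at 4 weeks, at 157, 161 and 204 CPM in control and 188, 196 and 207 CPM in DMM. In 4-week control replicates 1, 2 and 3 the same order held for neutrophil genes (9645, 16118 and 27836 CPM), erythroid genes (7671, 10002 and 21663 CPM) and osteoclast genes (893, 1433 and 3169.9 CPM), though not in the 4-week DMM libraries. In the controls alone it also held for B lymphocyte genes (164, 186 and 374 CPM) and T and NK lymphocyte genes (53.7, 69.5 and 119 CPM). Chondrocyte genes had the opposite order, at 41136, 31036 and 17394 CPM in 4-week control replicates 1, 2 and 3, and were at 22006, 14655 and 15104 CPM in DMM. Skeletal muscle genes had that opposite order in both limbs, with 24439.9, 7639 and 6549 CPM in 4-week control and 3928, 1851 and 631 CPM in 4-week DMM replicates 1, 2 and 3, all DMM libraries below all control libraries. At 12 weeks muscle genes stood high in control replicate 3 (16491 CPM) and DMM replicate 1 (12979 CPM) and between 105 and 2093 CPM in the other libraries. The part of these cells in the levels of the interferon-stimulated genes was not tested.

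**Figure D2:**
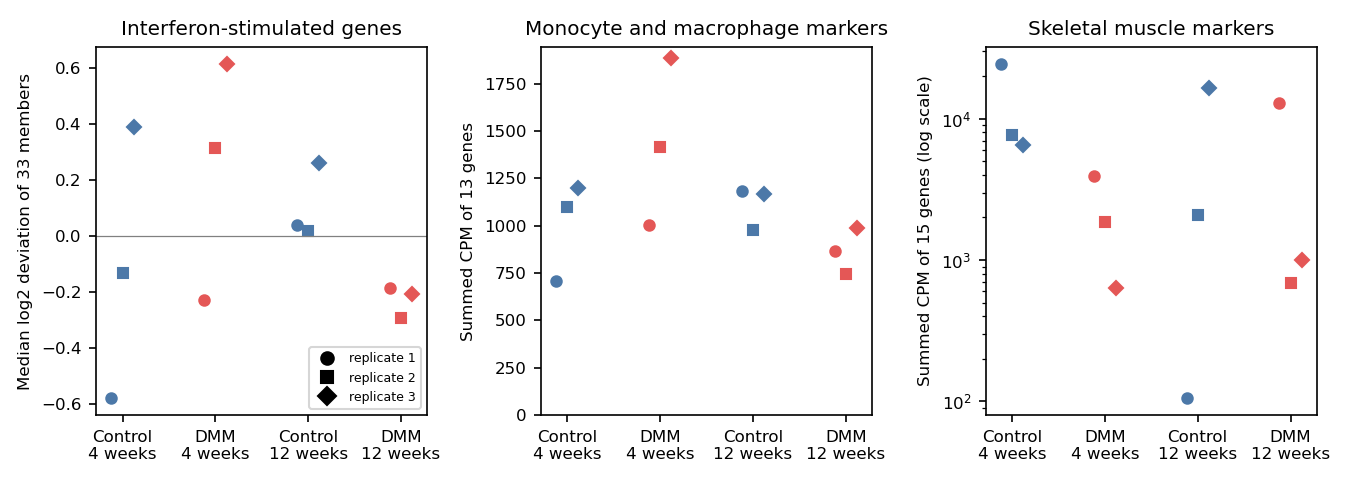
The left panel shows for each RNA library the median log2 deviation of the 33 members from their 12-library means, the middle panel the summed CPM of 13 monocyte and macrophage genes and the right panel that of 15 skeletal muscle genes on a log scale, with blue for control and red for DMM. Within each limb at 4 weeks both the members and the macrophage genes are lowest in replicate 1 and highest in replicate 3.

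Stat2, Irf9 and Irf7 encode the factors that carry and amplify the interferon signal. Stat2 (NM_019963, chr10:128270498-128292853, forward strand) was at 14.7, 21.4 and 25.3 CPM in the control and 19.04, 15.4 and 15.2 CPM in the DMM libraries at 4 weeks. At 12 weeks Stat2 was at 36.3, 25.8 and 40.3 CPM in control and 23.7, 17.7 and 21.97 CPM in DMM, where every DMM library was below every control library. Irf9 (NM_001159417, chr14:55603985-55610030, forward strand) was at 25.7, 32.6 and 47.6 CPM in control and 29.7, 43.5 and 46.9 CPM in DMM at 4 weeks. At 12 weeks Irf9 was at 46.4, 47.6 and 47.4 CPM in control and 37.4, 36.3 and 42.3 CPM in DMM, again without overlap at the later time. Irf7 (NM_016850, chr7:141263183-141266424, reverse strand) was at 16.9, 17.3 and 33.2 CPM in control and 18.5, 17.8 and 17.4 CPM in DMM at 4 weeks. At 12 weeks Irf7 was at 29.4, 32.8 and 37.5 CPM in control and 26.1, 24.7 and 30.1 CPM in DMM. For Irf7 the high 4-week control value came from replicate 3 alone, and all 12-week DMM libraries were above all 4-week DMM libraries.

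Ifih1, Dhx58 and Zbp1 encode sensors, the RNA helicases MDA5 and LGP2 and a receptor of left-handed nucleic acid. Ifih1 (NM_027835, chr2:62595793-62646255, reverse strand) was at 5.41, 8.16 and 10.9 CPM in control and 11.4, 11.5 and 14.8 CPM in DMM at 4 weeks, where all DMM libraries were higher, and at 9.95, 6.300 and 14.4 CPM in control and 8.37, 7.003 and 7.41 CPM in DMM at 12 weeks, where the limbs overlapped. Zbp1 (NM_021394, chr2:173206612-173218922, reverse strand) was at 2.95, 4.03 and 4.37 CPM in control and 3.41, 4.92 and 7.65 CPM in DMM at 4 weeks. At 12 weeks Zbp1 was at 4.48, 3.65 and 5.599 CPM in control and 4.68, 3.33 and 5.85 CPM in DMM, with overlap at both times. Dhx58 stayed between 17.9 and 29.8 CPM in all libraries.

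The IFIT proteins bind foreign RNA and hold back its translation. Ifit1 (NM_008331, chr19:34640889-34650009, forward strand) was at 4.24, 6.098 and 11.2 CPM in control and 8.82, 10.7 and 16.3 CPM in DMM at 4 weeks. At 12 weeks Ifit1 was at 4.95, 5.85 and 6.88 CPM in control and 6.24, 4.78 and 5.98 CPM in DMM. Ifit2 (NM_008332, chr19:34550694-34576534, forward strand) was at 14.9, 20.6 and 19.5 CPM in control and 23.4, 25.6 and 35.4 CPM in DMM at 4 weeks. At 12 weeks Ifit2 was at 14.9, 12.4 and 15.7 CPM in control and 11.5, 11.5 and 11.9 CPM in DMM. Its limbs did not overlap at either time and lay in opposite order, DMM above control at 4 weeks and below it at 12 weeks. Ifit3 (NM_010501, chr19:34583529-34588982, forward strand) was at 9.11, 7.32 and 7.76 CPM in control and 10.1, 6.999 and 11.6 CPM in DMM at 4 weeks. At 12 weeks Ifit3 was at 2.68, 5.01 and 4.48 CPM in control and 3.099, 6.28 and 5.87 CPM in DMM, so that every 12-week library was below every 4-week library.

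OAS enzymes make oligoadenylates that activate RNase L when they meet double-stranded RNA. Oas3 (NM_145226, chr5:120753098-120777659, reverse strand) was at 4.55, 11.01 and 23.7 CPM in control and 9.08, 8.77 and 6.07 CPM in DMM at 4 weeks. At 12 weeks Oas3 was at 20.03, 15.7 and 25.7 CPM in control and 9.38, 6.74 and 8.73 CPM in DMM. At 12 weeks every control library was above every DMM library, and at 4 weeks the controls spanned the whole DMM range. Oas1a (NM_145211, chr5:120896256-120907525, reverse strand) was at 2.62, 3.57 and 4.28 CPM in control and 3.06, 4.67 and 5.61 CPM in DMM at 4 weeks. At 12 weeks Oas1a was at 4.98, 4.96 and 4.81 CPM in control and 3.31, 4.13 and 3.12 CPM in DMM, without overlap at the later time. Oas2, Oasl1 and Oasl2 overlapped between limbs at both times, between 1.36 and 4.50, 1.43 and 4.56, and 9.30 and 20.5 CPM.

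ISG15 is conjugated to target proteins by ligases such as HERC6 and TRIM25 and removed by USP18, and DTX3L and PARP9 form a ubiquitin ligase complex. Isg15 (NM_015783, chr4:156199424-156200818, reverse strand) was at 8.83, 10.3 and 23.6 CPM in control and 7.63, 18.6 and 20.3 CPM in DMM at 4 weeks. At 12 weeks Isg15 was at 11.9, 16.2 and 15.8 CPM in control and 9.59, 10.4 and 15.3 CPM in DMM, with overlap at both times. Dtx3l (NM_001013371, chr16:35926515-35939027, reverse strand) was at 10.1, 15.8 and 21.3 CPM in control and 14.4, 16.7 and 15.1 CPM in DMM at 4 weeks, and at 24.3, 11.6 and 18.5 in control and 9.61, 9.03 and 9.23 CPM in DMM at 12 weeks. Its 12-week DMM libraries lay close together below all controls. Parp9 (NM_030253, chr16:35938470-35972621, forward strand) was at 19.00, 25.1 and 29.9 CPM in control and 26.6, 32.7 and 40.9 CPM in DMM at 4 weeks. At 12 weeks Parp9 was at 24.03, 21.6 and 24.1 CPM in control and 16.95, 18.4 and 21.02 CPM in DMM. Parp14, an ADP-ribosyltransferase encoded beside them (NM_001039530, chr16:35832878-35871382, reverse strand), was at 3.397, 5.66 and 8.95 CPM in control and 5.503, 8.58 and 10.03 CPM in DMM at 4 weeks. At 12 weeks Parp14 was at 8.01, 5.91 and 8.97 CPM in control and 4.87, 6.47 and 4.82 CPM in DMM. Trim25 (NM_009546, chr11:88999403-89020293, forward strand) was at 11.8, 17.1 and 20.5 CPM in control and 14.7, 14.9 and 12.4 CPM in DMM at 4 weeks. At 12 weeks Trim25 was at 27.9, 22.1 and 24.5 CPM in control and 20.3, 17.6 and 20.4 CPM in DMM, where the limbs did not overlap. Usp18 and Herc6 ranged from 7.497 to 15.6 and from 11.0 to 19.8 CPM, and Herc6 was lower in all 12-week DMM than in all 12-week control libraries.

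Guanylate binding proteins are GTPases that attack the vacuoles of intracellular microbes and respond mainly to interferon gamma. Gbp2 (NM_010260, chr3:142620663-142638008, forward strand) was at 14.5, 18.9 and 16.3 CPM in control and 19.7, 27.2 and 42.01 CPM in DMM at 4 weeks. At 12 weeks Gbp2 was at 11.9, 8.58 and 8.81 CPM in control and 14.3, 14.6 and 12.5 CPM in DMM. It was the 1 member whose DMM libraries were all above the controls at both times. Of all genes 10.8% met this at 4 and 9.88% at 12 weeks, and the share at both times was not counted. Gbp3 (NM_018734, chr3:142560044-142573213, forward strand) was at 7.33, 10.9 and 15.97 CPM in control and 10.9, 18.1 and 23.8 CPM in DMM at 4 weeks. At 12 weeks Gbp3 was at 12.8, 9.53 and 11.8 CPM in control and 10.4, 8.99 and 11.96 CPM in DMM. Gbp7 (NM_001083312, chr3:142530336-142550151, forward strand) was at 13.6, 17.3 and 23.6 CPM in control and 18.3, 25.7 and 26.8 CPM in DMM at 4 weeks. At 12 weeks Gbp7 was at 18.8, 11.97 and 18.7 CPM in control and 11.2, 10.3 and 12.5 CPM in DMM. Gbp3 and Gbp7 overlapped between limbs at both times.

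Among the other effectors, Rsad2 (NM_021384, chr12:26442743-26456452, reverse strand) was at 51.05, 79.9 and 196 CPM in control and 66.8, 141 and 149.7 CPM in DMM at 4 weeks. At 12 weeks Rsad2 was at 85.7, 86.3 and 128 CPM in control and 67.02, 57.9 and 75.3 CPM in DMM, where the limbs did not overlap. Cmpk2, a mitochondrial nucleotide kinase encoded beside it (NM_020557, chr12:26469215-26479837, forward strand), was at 24.4, 28.4 and 57.8 CPM in control and 29.6, 32.4 and 21.6 CPM in DMM at 4 weeks. At 12 weeks Cmpk2 was at 69.02, 48.3 and 65.6 CPM in control and 37.9, 31.5 and 51.6 CPM in DMM. Samd9l, an antiviral factor that restrains translation and growth (NM_010156, chr6:3372257-3399571, reverse strand), was at 23.1, 49.8 and 61.9 CPM in control and 55.5, 68.9 and 66.1 CPM in DMM at 4 weeks. At 12 weeks Samd9l was at 64.7, 23.1 and 44.5 CPM in control and 28.5, 23.7 and 19.5 CPM in DMM. Control replicate 2 was the low library of Samd9l at 12 weeks, inside the DMM range. Xaf1, a pro-apoptotic factor (NM_001037713, chr11:72301629-72313733, forward strand), was at 4.87, 5.22 and 7.17 CPM in control and 5.91, 8.24 and 10.2 CPM in DMM at 4 weeks. At 12 weeks Xaf1 was at 5.59, 6.11 and 5.95 CPM in control and 5.17, 4.67 and 5.28 CPM in DMM. Rtp4 (NM_023386, chr16:23609919-23614222, forward strand) was at 8.64, 12.1 and 18.4 CPM in control and 11.2, 19.5 and 24.3 CPM in DMM at 4 weeks. At 12 weeks Rtp4 was at 12.96, 15.01 and 17.1 CPM in control and 11.9, 11.5 and 12.3 CPM in DMM. Ifi35 (NM_027320, chr11:101448412-101458701, forward strand) stayed between 26.6 and 37.7 CPM in all libraries, Lgals3bp between 56.5 and 85.6, Bst2 between 12.2 and 26.0 and Ifi44 between 0.924 and 3.40 CPM.

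**Figure D3:**
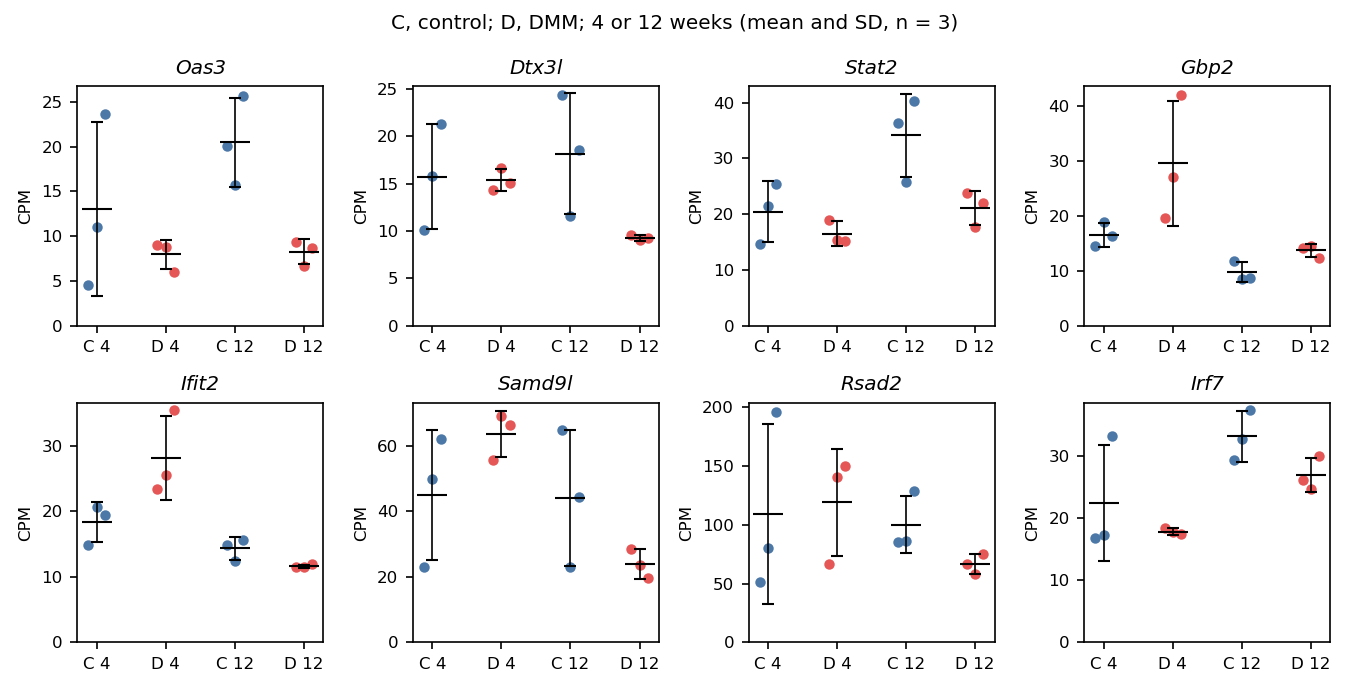
CPM of 8 members in each of the 12 RNA libraries (coloured points, blue control and red DMM) with mean and SD of 3 libraries in black, each panel on its own linear axis from 0. Oas3, Dtx3l and Stat2 show 12-week DMM libraries below all 12-week controls, Gbp2 shows DMM above control at both times, and Ifit2 lies above control at 4 weeks and below it at 12 weeks.

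The study compared DMM with control cartilage at 4 weeks to find early changes. At this time most members leaned to the operated limb but none passed the test. The log2 fold change of DMM against control was above 0 for 24 of 33 members (72.7%), against 48.1% of the 15183 genes tested, and its median was 0.24, against -0.02 over all genes. With edgeR's quasi-likelihood test and Benjamini-Hochberg adjustment over all rows, 0 members had an adjusted p under 0.05 (0.0329% of all genes), and DESeq2 also called 0 (3.30% of the genes it tested). At an unadjusted p under 0.05, 2 members were higher (6.06%, against 6.03% of all genes) and 0 lower (against 7.4%). In 3 members all DMM libraries were above all control libraries (9.09%, against 10.8% of all genes), and in 0 all were below (10.3% of all genes), each under the share over all genes.

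The smallest p belonged to Gbp2, with a log2 fold change of 0.83 ± 0.28 (SE), adjusted p = 0.312 in edgeR. Ifit2 followed at 0.61 ± 0.23 (adjusted p = 0.338) and Ifih1 at 0.61 ± 0.29 (adjusted p = 0.383). These are the 3 members whose limbs did not overlap. Ifit1 was at 0.72 ± 0.40 (adjusted p = 0.415), Gbp3 at 0.62 ± 0.36 (adjusted p = 0.435) and Samd9l at 0.49 ± 0.34 (adjusted p = 0.487). Parp9, Xaf1, Zbp1 and Gbp7 had log2 fold changes of 0.43 ± 0.24 (adjusted p = 0.422), 0.48 ± 0.28 (adjusted p = 0.430), 0.48 ± 0.34 (adjusted p = 0.495) and 0.36 ± 0.26 (adjusted p = 0.504). By role, the 3 IFIT genes and the 3 guanylate binding proteins were all above 0, whereas 3 of 5 OAS genes and 2 of 3 transcription factors were below it. Stat2 was at -0.31 ± 0.25 (adjusted p = 0.551), Irf7 at -0.34 ± 0.29 (adjusted p = 0.577) and Irf9 at 0.17 ± 0.28 (adjusted p = 0.778). Isg15 at 0.10 ± 0.47 (adjusted p = 0.927) and Rsad2 at 0.11 ± 0.51 (adjusted p = 0.927) differed by less than their SE.

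The size of this shift depended on single libraries. The median log2 fold change over members was 0.53 without control replicate 3, 0.43 without DMM replicate 1, 0.14 without control replicate 1 and 0.066 without DMM replicate 3, and 0.34 without replicate 3 of both limbs, with 0 members called each time. The number of members higher at an unadjusted p under 0.05 went from 2 to 12 (36.4%, against 7.27% of all genes in that fit) without control replicate 3. It was 0 (against 2.36%) without DMM replicate 3, 1 (3.03%, against 5.26%) without control replicate 1, and 5 (15.2%, against 6.09%) with the replicate number added to the fit (a replicate block). With all 12 libraries in 1 fit it was also 5 (15.2%, against 9.26%). In the same comparison 12 of 13 monocyte and macrophage, 8 of 9 fibroblast and synovium and 9 of 11 osteoblast and osteocyte genes had a log2 fold change above 0. All 15 skeletal muscle genes and 12 of 15 chondrocyte genes had one below 0. Above 0 were also 6 of 14 neutrophil, 3 of 10 erythroid, 4 of 10 B lymphocyte, 5 of 10 T and NK lymphocyte and 3 of 8 endothelium genes. The part of these cells in the members' values was not tested.

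At 12 weeks, a later stage after surgery, the members leaned the other way. The log2 fold change of DMM against control was below 0 for 29 of 33 members and above 0 for 4 (12.1%, against 52.3% of 15083 genes), and its median was -0.30, against 0.02 over all genes. In edgeR, 0 members had an adjusted p under 0.05 (0.00663% of all genes). DESeq2 called 2 lower, Oas3 and Dtx3l (6.06%, against 1.3% of the genes it tested), and 0 higher (against 2.35%). At an unadjusted p under 0.05, 11 members (33.3%) were lower in DMM, against 7.13% of all genes, and 1 was higher, against 8.78%. In 12 members (36.4%) every DMM library was below every control library, against 8.42% of all genes, and in 1 every DMM library was above (9.88% of all genes). These 12 were Stat2, Irf9, Ifit2, Oas1a, Oas3, Herc6, Trim25, Dtx3l, Parp9, Rsad2, Xaf1 and Rtp4.

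Oas3 had the largest difference, with a log2 fold change of -1.29 ± 0.22 (SE), from 20.5 ± 4.97 CPM in control to 8.28 ± 1.38 CPM in DMM (SD, n = 3 each). Its adjusted p was 0.110 in edgeR, while DESeq2 gave an adjusted p of 3.60e-05. With a block for the replicate number edgeR called Oas3 (adjusted p = 0.0230) and Stat2 (adjusted p = 0.0469) lower, against 1.14% of all genes, and whether these numbers pair the pools is not known. For Dtx3l the log2 fold change was -0.96 ± 0.26 (adjusted p = 0.215 in edgeR), and DESeq2 gave an adjusted p of 0.0217. All 3 transcription factors were below 0, Stat2 at -0.68 ± 0.20 (adjusted p = 0.236), Irf9 at -0.28 ± 0.11 (adjusted p = 0.291) and Irf7 at -0.29 ± 0.14 (adjusted p = 0.341). The neighbours Rsad2 and Cmpk2 had similar values of -0.58 ± 0.19 (adjusted p = 0.257) and -0.59 ± 0.21 (adjusted p = 0.270). Samd9l was at -0.88 ± 0.35 (adjusted p = 0.289), Gbp7 at -0.54 ± 0.20 (adjusted p = 0.278) and Oas1a at -0.48 ± 0.20 (adjusted p = 0.295). Gbp2 alone was on the other side with an unadjusted p under 0.05, at 0.51 ± 0.18 (adjusted p = 0.265). Isg15 at -0.31 ± 0.21 (adjusted p = 0.475) and Ifit1 at -0.05 ± 0.21 (adjusted p = 0.932) did not pass even without adjustment.

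By role, all 5 OAS genes, all 7 genes of the ISG15 and ubiquitin pathway and all 9 other effectors were below 0, and 2 of the 3 sensors were above it. Without control replicate 2 edgeR called 5 members lower (Oas3, Dtx3l, Samd9l, Stat2 and Gbp7, 15.2%, against 1.97% of all genes in that fit), and without any other single library it called 0 (0.0% to 0.452% of all genes). With all 12 libraries in 1 fit, 5 members (15.2%, against 3.77% of all genes) were lower at an unadjusted p under 0.05 and 0 higher. The number lower in DMM at that p was 3 (9.09%, against 4.07% of all genes in that fit) without control replicate 3. It was 5 without DMM replicate 1 (15.2%, against 5.29%) or 2 (15.2%, against 2.68%) and 6 without control replicate 1 (18.2%, against 2.72%). Without DMM replicate 3 it was 10 (30.3%, against 11.4%) and without control replicate 2 it was 13 (39.4%, against 12.2%). Blood and marrow markers lay the same way, with 12 of 13 monocyte and macrophage, 14 of 14 neutrophil, 10 of 10 erythroid, 9 of 10 B lymphocyte and 9 of 10 T and NK lymphocyte genes below 0. Above it lay 15 of 15 chondrocyte, 8 of 9 fibroblast and synovium and 8 of 11 osteoblast and osteocyte genes. The part of these cells in the members' values was not tested. Without the 2 libraries rich in muscle genes the median over members was -0.24 with 0 called.

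**Figure D4:**
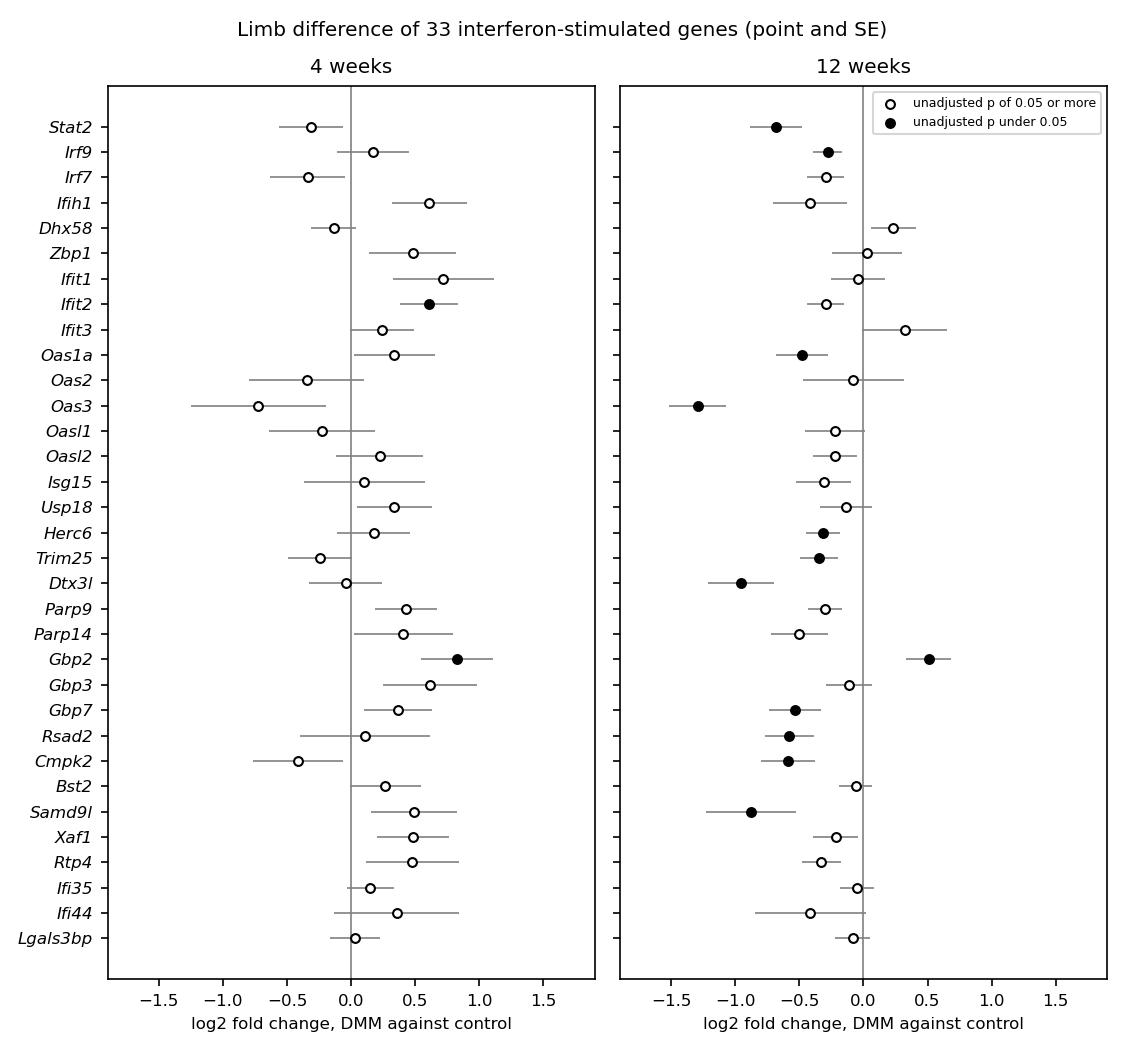
Log2 fold change of DMM against control with its SE for each of the 33 members at 4 weeks (left) and 12 weeks (right), with filled points for an unadjusted p under 0.05 in edgeR. At 4 weeks 24 points lie right of 0 and 2 are filled, and at 12 weeks 29 lie left of 0 and 12 are filled.

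Whether the limb difference changed between the time points was tested as the interaction of limb and week over all 12 libraries. The difference at 12 weeks minus that at 4 weeks was below 0 for 29 of 33 members and above 0 for 4 (12.1%, against 52.1% of 15577 genes), with a median of -0.49. In edgeR 0 members had an adjusted p under 0.05 (0.0% of all genes), and DESeq2 also called 0 (0.0619% of its genes). At an unadjusted p under 0.05, 8 members (24.2%) were below 0 and 0 above, against 4.29% and 7.56% of all genes. Ifit2 had the smallest p, at -0.92 ± 0.27 (SE, adjusted p = 0.405). Gbp7 was at -0.92 ± 0.34 (adjusted p = 0.405), Parp9 at -0.74 ± 0.28 (adjusted p = 0.405), Samd9l at -1.38 ± 0.52 (adjusted p = 0.405) and Ifih1 at -1.04 ± 0.43 (adjusted p = 0.405). Dtx3l, Oas1a and Xaf1 were at -0.93 ± 0.40 (adjusted p = 0.405), -0.83 ± 0.37 (adjusted p = 0.405) and -0.72 ± 0.32 (adjusted p = 0.405), and Rtp4 and Parp14 at -0.83 ± 0.42 (adjusted p = 0.415) and -0.92 ± 0.47 (adjusted p = 0.418). Of the members fixed for naming in every comparison, Ifit1 was at -0.78 ± 0.47 (adjusted p = 0.460), Irf9 at -0.47 ± 0.31 (adjusted p = 0.494) and Stat2 at -0.38 ± 0.32 (adjusted p = 0.571). Rsad2 was at -0.71 ± 0.60 (adjusted p = 0.572), Isg15 at -0.44 ± 0.57 (adjusted p = 0.715) and Irf7 at 0.03 ± 0.33 (adjusted p = 0.972). The number of members with an unadjusted p under 0.05 and a difference below 0 was 18 (54.5%, against 10.9% of all genes in that fit) without 4-week control replicate 3, 13 (39.4%, against 9.35%) without 4-week DMM replicate 1 and 14 (42.4%, against 6.22%) with the replicate block. It was 2 (6.06%, against 1.79%) without 4-week DMM replicate 3, and 3 to 6 without each of the other libraries in turn (9.09% to 18.2%, against 1.9% to 5.19%). Of the marker genes, 12 of 13 for monocytes and macrophages (median -1.14), 13 of 14 for neutrophils, 9 of 10 for B lymphocytes, 9 of 10 for T and NK lymphocytes and 9 of 10 for erythroid cells were below 0 as well. All 15 chondrocyte (median 1.17) and all 15 skeletal muscle genes (median 2.40) were above 0, and the part of these cells in the members' values was not tested.

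The same libraries were compared between weeks within each limb, where week, age and any difference in preparation cannot be told apart. In control cartilage 0 members passed edgeR's test from 4 to 12 weeks. The log2 fold change was above 0 for 22 of 33 members (66.7%, against 48.3% of 15256 genes) with a median of 0.11, and edgeR called 0.0% of all genes. DESeq2 called Gbp2 and Ifit3 lower (6.06%, against 6.38% of its genes) and 0 higher (against 5.3%). At an unadjusted p under 0.05, 2 members were higher (6.06%, against 10.3% of all genes) and 2 lower (6.06%, against 10.5%). Groups did not overlap for 3 higher (9.09%, against 16.0%) and 2 lower members (6.06%, against 11.0%). Gbp2 was at -0.79 ± 0.20 (SE, adjusted p = 0.108 in edgeR) and Ifit3 at -1.005 ± 0.27 (adjusted p = 0.120). In the other direction lay Stat2 at 0.72 ± 0.27 (adjusted p = 0.193) and Trim25 at 0.57 ± 0.24 (adjusted p = 0.229). Cmpk2 at 0.70 ± 0.35 (adjusted p = 0.298), Irf7 at 0.54 ± 0.30 (adjusted p = 0.330), Oas1a at 0.47 ± 0.24 (adjusted p = 0.306) and Irf9 at 0.39 ± 0.24 (adjusted p = 0.367) were above 0, and Ifit2 at -0.38 ± 0.19 (adjusted p = 0.298) below it. Ifi35 was at 0.17 ± 0.14 (adjusted p = 0.483), Ifit1 at -0.31 ± 0.38 (adjusted p = 0.652), Rsad2 at -0.15 ± 0.49 (adjusted p = 0.876) and Isg15 at 0.02 ± 0.40 (adjusted p = 0.986). Without 4-week control replicate 3 edgeR called Irf7, Cmpk2 and Irf9 higher at 12 weeks (9.09%, against 9.36% of all genes in that fit), and 30 of 33 members were above 0. Without 4-week control replicate 1 only 12 of 33 were above 0 (36.4%, against 47.2% of all genes), so 1 library decided which way the members leaned. The number higher at an unadjusted p under 0.05 was 8 (24.2%, against 19.1%) without 4-week control replicate 3. It was 0 or 1 (0.0% or 3.03%, against 5.58% to 8.31% of all genes) without each other library. Of the marker genes, all 14 for neutrophils were above 0 (median 1.03, 5 with an unadjusted p under 0.05), and 8 of 9 for fibroblasts and synovium (median -1.01, 6 at that p), all 15 for skeletal muscle and all 6 for adipocytes were below it. The part of these cells in the members' values was not tested.

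In DMM cartilage the members fell from 4 to 12 weeks more often than they rose. EdgeR called 10 members lower (30.3%, against 11.6% of 15023 genes) and 1 higher (3.03%, against 11.6%), and DESeq2 called 12 lower and 1 higher (28.3% of its genes in either direction). The log2 fold change was above 0 for 8 of 33 members (24.2%, against 48.3% of all genes), with a median of -0.45, against -0.03 over all genes. At an unadjusted p under 0.05, 16 members were lower (48.5%, against 19.6%) and 2 higher (6.06%, against 19.0%). The groups did not overlap for 10 lower (30.3%, against 19.4%) and 3 higher members (9.09%, against 23.3%). Without 4-week DMM replicate 3, 10 members were lower at that p (30.3%, against 14.5%). The unadjusted and adjusted shares over all genes were higher here than in the other comparisons.

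The 10 that fell were Samd9l by 1.45 on the log2 scale (SE 0.19, adjusted p = 0.00376 in edgeR), Ifit2 by 1.31 (SE 0.20, adjusted p = 0.00484), Gbp2 by 1.15 (SE 0.26, adjusted p = 0.0138), Ifit1 by 1.11 (SE 0.26, adjusted p = 0.0160), Gbp7 by 1.10 (SE 0.21, adjusted p = 0.00767), Ifit3 by 0.96 (SE 0.30, adjusted p = 0.0420), Rsad2 by 0.88 (SE 0.28, adjusted p = 0.0445), Parp9 by 0.87 (SE 0.20, adjusted p = 0.0140), Dtx3l by 0.77 (SE 0.18, adjusted p = 0.0164) and Ifih1 by 0.76 (SE 0.20, adjusted p = 0.0248). All 3 IFIT genes were among them. Irf7 rose, by 0.55 ± 0.17 (SE, adjusted p = 0.0375). EdgeR lost this call without any single library other than 4-week DMM replicate 1. It also lost it with the replicate number as a block, which joins pools of different mice between weeks. In control cartilage Irf7 (0.54 ± 0.30), Gbp2 (-0.79 ± 0.20) and Ifit3 (-1.005 ± 0.27) moved the same way. Their interactions of limb and week were 0.03 ± 0.33, -0.34 ± 0.35 and 0.08 ± 0.43, so no limb difference in these changes was shown. Of the other members that fell, Dtx3l (0.18 ± 0.36) and Ifih1 (0.30 ± 0.38) were above 0 in control, and the rest below it. In DMM, Isg15 at -0.44 ± 0.34 (adjusted p = 0.359), Stat2 at 0.31 ± 0.19 (adjusted p = 0.253) and Irf9 at -0.09 ± 0.20 (adjusted p = 0.756) did not pass the test, and 0 of 5 OAS genes did. Samd9l, Ifit2, Gbp7 and Parp9 were called without each of the 6 libraries in turn, whereas Rsad2 and Ifit3 each lost their call in 5 of these 6 fits. Ifih1 lost it in 4, Dtx3l in 3, Ifit1 in 2 and Gbp2 in 1. The number of members called was 18 without 4-week DMM replicate 1 (33.8% of all genes), 7 without replicate 2 (9.25%) and 6 without replicate 3 (9.36%), and 5 without 12-week DMM replicate 2 (12.5%) or 3 (9.35%). The monocyte and macrophage genes summed to 1003 to 1886 CPM in the 4-week and 744 to 989 CPM in the 12-week DMM libraries, with 8 of 13 called lower. Of the fibroblast and synovium genes 6 of 9 were called lower (median -1.56), of the adipocyte genes 4 of 6 (median -1.27) and of the endothelium genes 4 of 8 (median -0.73), while all 14 neutrophil genes were above 0 (3 called). The part of these cells in the members' values was not tested.

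Other genes of the pathway were read from lists chosen by function. Interferon genes themselves were hardly detected. Of 20 ligand genes, 14 had 0 counts in all 12 libraries, and the highest single count was 13, for Ifng in 12-week DMM replicate 3. Ifnb1 had at most 2 counts in a library, where 3 counts in a library correspond to 0.0478 to 0.108 CPM, so ligand changes could not be read from these counts. Shared 50-base words were counted only for the 33 members and not for the ligand genes.

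Of 21 receptor and signalling genes, 9 were above 0 at 4 weeks (48.1% of all genes) and 4 at 12 weeks (52.3%). At 4 weeks 0 of the 21 had an unadjusted p under 0.05 (against 6.03% of all genes higher and 7.4% lower). At 12 weeks 5 of the 21 were lower (against 7.13% of all genes) and 1 higher (against 8.78%) at that p. The receptor kinase Tyk2 was at -0.59 ± 0.28 (adjusted p = 0.385) at 4 weeks and -0.48 ± 0.15 (adjusted p = 0.244) at 12 weeks. Socs3, a feedback inhibitor best known from IL-6 signalling, lay the other way at 12 weeks, with 26.6, 32.7 and 22.99 CPM in control and 49.9, 60.96 and 36.2 CPM in DMM and a log2 fold change of 0.84 ± 0.21 (adjusted p = 0.211). The phosphatases Ptpn2 and Ptpn1 were at 0.38 ± 0.22 (adjusted p = 0.425) and -0.35 ± 0.22 (adjusted p = 0.452) at 4 weeks.

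Of 16 sensing genes tested, 11 were above 0 at 4 weeks (48.1% of all genes) and 1 at 12 weeks (52.3%). With an unadjusted p under 0.05, 2 of the 16 were higher at 4 weeks (against 6.03%). At 12 weeks 3 of the 16 were lower (against 7.13%) and 1 higher (against 8.78%) at that p. Tlr3, the endosomal receptor of double-stranded RNA, was at 0.76 ± 0.25 (adjusted p = 0.304), Tlr4 at 0.70 ± 0.27 (adjusted p = 0.341) and the adaptor Traf3 at -0.58 ± 0.26 (adjusted p = 0.374) at 4 weeks. At 12 weeks Adar, which edits double-stranded RNA, was at -0.71 ± 0.20 (adjusted p = 0.219), Ddx58 (RIG-I) at -0.48 ± 0.15 (adjusted p = 0.244) and Tlr7 at -0.81 ± 0.27 (adjusted p = 0.259). All DMM libraries were below all controls for 4 of the 16 at 12 weeks, these 3 among them, and above them for 1 (8.42% and 9.88% of all genes).

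Of 34 other interferon-induced genes, 25 were above 0 at 4 weeks (48.1% of all genes). At an unadjusted p under 0.05, 7 of the 34 were higher (against 6.03% of all genes). For 9 of the 34 the DMM libraries were all above the controls (10.8% of all genes), and both counts were above the share over all genes. Ifi204, a sensor of the HIN family, was at 11.8, 20.3 and 15.7 CPM in control and 30.2, 36.01 and 64.7 CPM in DMM at 4 weeks, a log2 fold change of 1.44 ± 0.33 (adjusted p = 0.236 in edgeR). Its relative Ifi211 was at 1.14 ± 0.31 (adjusted p = 0.257) and Phf11d at 1.06 ± 0.25 (adjusted p = 0.238). At 12 weeks 11 of the 34 were above 0 (52.3% of all genes). At an unadjusted p under 0.05, 7 of the 34 were lower (against 7.13% of all genes) and 3 of the 34 higher (against 8.78%). Apol9a was at 1.73 ± 0.46 (adjusted p = 0.215), Pml at -0.53 ± 0.14 (adjusted p = 0.215) and Trim30a at -0.55 ± 0.16 (adjusted p = 0.230). None of the 34 passed adjustment in edgeR in either limb comparison.

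Of 31 genes tested of the interferon gamma response and antigen presentation, 24 were above 0 at 4 weeks (48.1% of all genes) and 4 at 12 weeks (52.3%), and 0 were called at either time in edgeR (0.0329% and 0.00663%). With an unadjusted p under 0.05, 1 was lower at each time (against 7.4% and 7.13%) and 0 were higher (against 6.03% and 8.78%). B2m, the light chain of class I molecules, was at 426, 653 and 836 CPM in control and 716, 1024 and 1605 CPM in DMM at 4 weeks, a log2 fold change of 0.79 ± 0.38 (adjusted p = 0.385). The peptide transporter Tap2 and its partner Tapbp lay the other way, at -0.71 ± 0.22 (adjusted p = 0.277) and -0.50 ± 0.25 (adjusted p = 0.387). At 12 weeks Ciita was at -0.97 ± 0.35 (adjusted p = 0.273), Irgm1 at -0.22 ± 0.11 (adjusted p = 0.350) and Gbp4 at -0.59 ± 0.31 (adjusted p = 0.368).

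DNA methylation at the promoters of the members was measured in cartilage of other mice by reduced representation oxidative bisulfite sequencing (RRoxBS), in which the oxidised (oxBS) library reads 5-methylcytosine (5mC) alone. Promoters spanned 1000 bases before to 500 bases after the start site of the chosen transcript on GRCm38. With CpG cytosines of at least 10 reads in all 12 oxBS libraries and at least 3 of them per promoter, 16 of 33 members and 13940 genes could be measured. Of these 16, 11 (68.8%) had a mean 5mC under 2%, against 80.6% of all promoters, and the median was 0.851%, against 0.591%. All 4 cytosines of Parp9 were also among the 14 of its neighbour Dtx3l, so these promoters are not separate measurements.

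Dhx58 and Oas2 stood apart, each on 3 cytosines with 69 to 336 and 54 to 381 summed reads per library. Those of Dhx58 lay at -950 to -907 bases from the start site, so that its value does not describe the region around the start, and those of Oas2 lay at 0 to 168 bases. The Dhx58 promoter (chr11:100703771-100705271) was at 90.6, 84.8 and 89.8% in control and 87.02, 86.96 and 87.2% in DMM at 4 weeks, and at 89.4, 89.7 and 90.8% in control and 84.7, 92.9 and 86.2% in DMM at 12 weeks. That of Oas2 (chr5:120749348-120750848) was at 25.95, 41.7 and 34.9% in control and 45.6, 34.9 and 45.9% in DMM at 4 weeks and at 35.3, 40.7 and 42.4% in control and 41.6, 46.2 and 45.7% in DMM at 12 weeks. Oasl1 (chr5:114922240-114923740), on 16 cytosines with 358 to 2347 reads, was at 11.2, 8.86 and 10.6% in control and 11.3, 6.42 and 11.4% in DMM at 4 weeks and at 11.96, 11.5 and 13.98% in control and 9.46, 8.97 and 11.9% in DMM at 12 weeks. Irf9 and Trim25 were intermediate, between 3.85% and 9.01% and between 2.88% and 6.68%, and the promoters of Stat2 and Irf7 stayed at or under 1.61% and 1.36%.

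No member promoter passed the test between limbs. With a quasi-binomial model of the summed reads, adjusted over all promoters, 0 of 16 member promoters had an adjusted p under 0.05 at 4 weeks (0.0% of all) and 0 at 12 weeks (0.0%). At an unadjusted p under 0.05 the counts were 0 of 16 at 4 weeks (0.803% of all promoters) and 0 of 16 at 12 weeks (5.22%), and limma on log2 ratios gave 0 (4.33% of all promoters) and 1, Usp18 (8.39%), with 0 after adjustment. From reads pooled over the libraries of a limb, the largest differences of DMM minus control were 7.41 and 5.60 percentage points at Oas2 at 4 and 12 weeks, and -2.61 points at Dhx58 and -2.26 points at Oasl1 at 12 weeks, with overlap of the limbs in each. From the mean over libraries, under 1 percentage point separated the limbs in 13 of 16 promoters at 4 weeks and in 13 at 12 weeks. At 4 weeks the 2 ways of averaging differed in sign for Oasl1, Parp9, Cmpk2 and Rtp4.

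**Figure D5:**
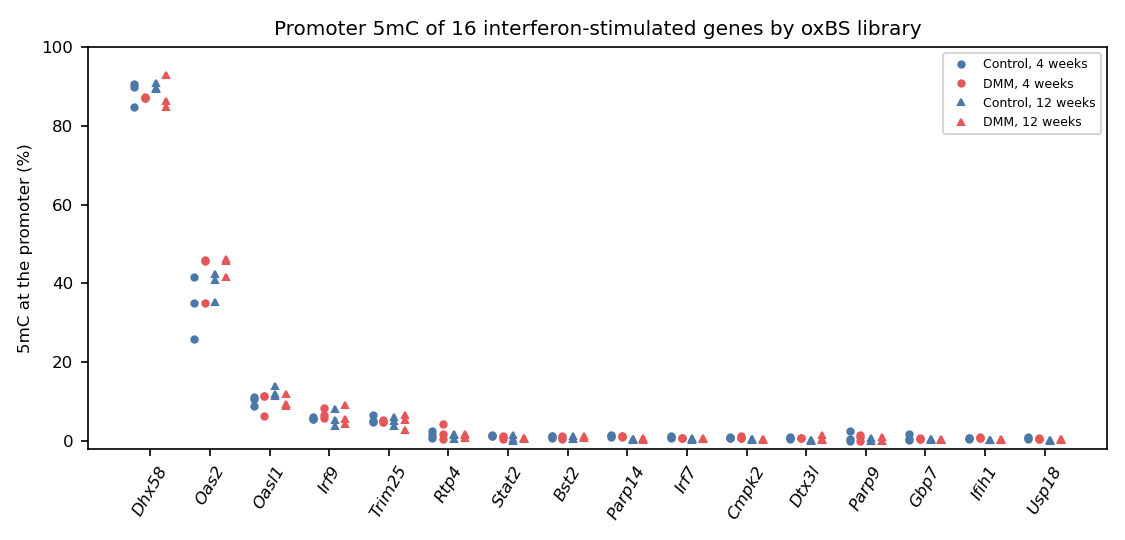
Percentage of 5mC at the promoters of the 16 measured members in each oxBS library, from the summed reads of their CpG cytosines, with circles for 4 and triangles for 12 weeks and blue for control and red for DMM. Dhx58 lies between 84.7% and 92.9% and Oas2 between 26.0% and 46.2%, and 11 promoters have a mean under 2%.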

How the data were processed

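Cartilage RNA of 12 pools (3 per limb and week) and DNA of other mice in 12 oxBS libraries were analysed. The BS libraries, in which 5mC and 5hmC are read together, were not used. Per the labels and the study's methods, the authors trimmed single-end reads with FLEXBAR, aligned them with STAR to mm10 and made the deposited read counts per RefSeq transcript with featureCounts (base calls by CASAVA 2.17, per the submitters' processing notes). Labels and methods name different RNA library kits. The deposited oxBS files give, per CpG cytosine and strand, the coverage as a count and the percentage of reads with C, made by the authors after CUTADAPT trimming with their own pipeline (the labels list Bismark).

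Rows of all transcripts were fitted with edgeR 4.0.16 (TMM, filterByExpr, robust quasi-likelihood, two-sided) on the libraries of each comparison, with Benjamini-Hochberg adjustment over all rows and a threshold of 0.05. Background shares were counted on 1 row per gene, and 572 rows had no symbol. The SE is the absolute log2 fold change divided by the square root of F. DESeq2 1.42.0 was an alternative. Promoter 5mC was summed over cytosines with at least 10 reads in all oxBS libraries and tested with a quasi-binomial model in R 4.3.3 (dispersion at least 1), with limma 3.58.1 as alternative. The scripts were tested on simulated data. The 10 members with the smallest p in each comparison, and Isg15, Irf7, Irf9, Stat2, Ifit1 and Rsad2, were named with values, with the 3 smallest p of each pathway list, of which 1 gene is not reported here. Members and lists were chosen with earlier results of these data known. Alternatives were other scaling, filters, rows, fits, a replicate block and leaving out libraries.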

Additional observations from a re-analysis of the deposited data

Results flagged for a closer look

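For Ifit2 the limb difference lay in opposite directions at the 2 time points. All 4-week DMM libraries were above all 4-week controls and all 12-week DMM libraries were below all 12-week controls. Of all genes 10.8% met the first rule and 8.42% the second, and the share meeting both was not counted. The difference at 12 weeks minus that at 4 weeks was -0.92 on the log2 scale, with adjusted p = 0.405 in edgeR's interaction test over all genes. Leaving out each of the 12 libraries in turn, it ranged from -1.03 to -0.71, with adjusted p from 0.113 to 0.724.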

How the results depend on the processing

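Leaving out 1 library moved the number of members called from 0 to between 0 and 5 for DMM against control at 12 weeks. The 5 came without control replicate 2, all lower (15.2%, against 1.97% of all genes). For 12 against 4 weeks in control it moved from 0 to between 0 and 3. The 3 came without 4-week replicate 3, all higher (9.09%, against 9.36% of all genes). For the same weeks in DMM it moved from 11 to between 5 and 18. The 18 came without 4-week replicate 1, 17 lower (51.5%, against 15.4%) and 1 higher (3.03%, against 18.5%). The 5 came without 12-week replicate 2 or 3, all lower (15.2%, against 5.84% and 4.2%). The median member log2 fold change at 4 weeks ranged from 0.066 to 0.53. DESeq2 called 2 members lower at 12 weeks between limbs (6.06%, against 1.3% of its genes). Between weeks in control it called 2 lower (6.06%, against 6.38%). Single genes were followed for their sign only in the comparisons where they are named with values. Those that changed sign without 1 library were, for DMM against control at 4 weeks, Isg15 (-0.13 to 0.68), Rsad2 (-0.21 to 0.85), Irf9 (-0.0055 to 0.45) and Irf7 (-0.50 to 0.06), and Ifit1 at 12 weeks (-0.18 to 0.069). The same held for Irf7 in the interaction (-0.38 to 0.22), for Isg15 (-0.26 to 0.61), Rsad2 (-0.51 to 0.61) and Ifit1 (-0.60 to 0.18) between weeks in control, and for Irf9 between weeks in DMM (-0.22 to 0.033). Other members changed sign as well. Over all 33 members, those above 0 numbered 20 to 30 at 4 weeks between limbs (24 with all libraries). Between weeks in control they numbered 12 to 30 (22 with all libraries). The cause was not tested. After seeing the data, both 4-week replicates 3, and separately the 12-week libraries rich in muscle genes, were left out, and Irf7 at 4 weeks was then at 0.10. Of the values of named genes under alternatives, 934 kept direction and side of the threshold, 15 passed it only there, 30 passed it only in the reported fit and 25 changed sign. In the reported fit only 11 of the 71 named values passed the threshold, all between weeks in DMM. Most of the 934 were therefore called in neither fit and do not measure how stable the calls are.

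Whether the replicate numbers pair the pools of both limbs is not known, and correlations between libraries did not show it. Deviations of same-numbered libraries correlated at 0.38, -0.44 and 0.11 between limbs at 4 weeks and at -0.47, 0.49 and -0.08 at 12 weeks. EdgeR called 1.7% of all genes between limbs at 4 weeks with the replicate block, against 0.0329% without it. At 12 weeks these shares were 3.21% and 0.00663%. Whether pairing gave this rise was not tested. With the replicate block 2 members (Oas3 and Stat2) were called lower at 12 weeks (1.14% of all genes), and Irf7 was at -0.046 in the interaction. Different mice were used at 4 and 12 weeks, so between weeks the block cannot pair animals and is no check of the unblocked fit. There it called 11 members in DMM, all lower (11.5% of all genes), with Gbp3 gained and Irf7 lost. Rsad2 was at 0.067 between weeks in control with this block. For promoter 5mC every alternative called 0 members, with 13 measured at a minimum of 20 reads and 8 from 250 bases before to 50 after the start site.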
